A study of Mus musculus with 16 samples.

Results

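The kinetochore is the protein machine that couples each chromosome to spindle microtubules, and the 41 genes described here encode its structural parts and the checkpoint that watches over it. They were chosen by symbol from 49568 gene symbols in the count table. Of the 41, 40 were found under the listed symbol and 1, Sgo1, under its older symbol Sgol1. They were followed across 4 groups of tendon libraries. Most counts and fold changes that rest on the uninjured libraries are given with and without those labelled replicate 4.

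A kinetochore is built on centromeric chromatin marked by the histone variant CENP-A, which holds a constitutive network of CENP proteins through the whole cell cycle. As a cell enters mitosis this base recruits the Knl1, Mis12 and Ndc80 complexes, which bind microtubules, while the Bub, Mad and Ttk proteins hold back anaphase until every chromosome is attached. Most of these genes are transcribed in the late part of the cell cycle, so tissue whose cells divide rarely carries little of their mRNA.

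RNA-seq was performed on the deep digital flexor tendon of the hind paw from male mice aged 9 to 11 weeks, with 4 libraries per group. C57 is the inbred strain C57BL/6J and MRL is the inbred strain MRL/MpJ, which is known for healing with little scar. Each strain gave a group of uninjured tendons and a group of injured ones, the latter taken 7 days after a laceration through 50% of the tendon of the third digit (7 dpi). RNA came from single tendons with the sheath and peritendinous tissue left on, so the cells of those tissues were sampled as well.

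Total counts, to 6 digits, ranged from 12552400 to 18524200 in 13 libraries and from 23274900 to 23741600 in 3 libraries of injured MRL tendon. Levels are given as CPM (counts-per-million) on TMM-adjusted library sizes, and 3 counts, taken as the limit of detection in a library, stood between 0.124 and 0.239 CPM. The 8 tendon markers listed (among them Scx, Tnmd and Fmod) summed to between 13630 and 52103 CPM, with at most 1 of them at 0 in a library. The injured libraries carry no replicate number in their labels and are numbered here in the order of their records. The libraries labelled uninjured replicate 4 went against their strain labels. Of 33 genes with at least 20 counts in each injured MRL library and at most 3 in all injured C57 libraries together, the library labelled C57 uninjured replicate 4 had over 3 counts for 32 and the other 3 C57 uninjured libraries for 1 to 3. The library labelled MRL uninjured replicate 4 had over 3 counts for 1 of them, against 32 or 33 in the other MRL uninjured libraries. The library labelled C57 uninjured replicate 4 also carried 12 of 12 epidermal markers above every other library, with a summed level of 81888 CPM against 27.6 to 737 CPM in the other 15, and their part in its kinetochore gene levels was not tested.

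A gene was called at an adjusted p-value under 0.05 with an absolute log2 fold change over 1, by the quasi-likelihood test of edgeR with Benjamini-Hochberg adjustment over all tested genes. In MRL tendon 32 of the 41 members were called and all 32 were higher at 7 dpi, where 5.25% of the 14274 genes tested were called higher. Without the library labelled MRL uninjured replicate 4, 26 members were called higher against 4.68% of 14868 genes tested, and all 26 were among the 32. All 41 were tested, but 22 of them passed the expression filter only through the injured libraries, which leaves a low uninjured level built into their test. Of the 19 that passed in the uninjured libraries alone, 12 were called higher, against 4.36% of the 12103 genes that passed in the same way. Without the labelled replicate 4 this was 9 of the 19, against 3.83%. When at least 10 counts were asked of every library 18 members were tested and 12 were called higher, against 5.01% of genes. These were the 11 of the 32 still tested and Cenpq. The count was 20 in one fit over all 16 libraries, against 3.54%. Every injured MRL library lay above every uninjured one for 35 members, an order that 13.3% of tested genes had, and for 35 again without the labelled replicate 4, against 15.3%. The median log2 fold change of the members was 3.48 (3.56 without the labelled replicate 4), and that of all tested genes was -0.03. Over the 18 members tested with at least 10 counts in every library it was 1.49, against -0.04 for all genes so tested.

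In C57 tendon 0 of the 40 members tested were called, where 0.908% of 14424 genes were called higher. By edgeR 4 members had an unadjusted p under 0.05, as did 15.3% of all genes, and DESeq2 called 1 member, Incenp, and 5.24% of all genes. The fold change was positive for 36 of the 40, with a median of 0.95 on the log2 scale. The library labelled C57 uninjured replicate 4 decided this count. It stood above the other 3 uninjured C57 libraries for 29 of the 41 members, against 34.6% of the 15947 genes tested over all libraries, and above the mean of the injured C57 libraries for 22, against 43%. Without it, 10 of 41 members were called, all higher, against 3.5% of 14983 genes tested, and the median log2 fold change of the members was 1.58. These 10 were Ndc80, Nuf2, Cenpi, Cenpa, Cenpf, Bub1, Ttk, Aurkb, Birc5 and Ska1. None of the 10 was among the 19 members that passed the filter in the uninjured C57 libraries alone, where 2.77% of the 11350 genes passing in that way were called higher, and all 10 were among the 32 called in MRL. The number of members with every injured C57 library above every uninjured one went from 1, Incenp, to 18 without that library, where 7.11% and 11% of tested genes had such an order. Of these 18, Cenpk, Mad2l1 and Incenp were among the 19 that passed the filter in the uninjured C57 libraries alone. The rest were not, so a low uninjured level was partly built into their order.

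**Figure D1:**
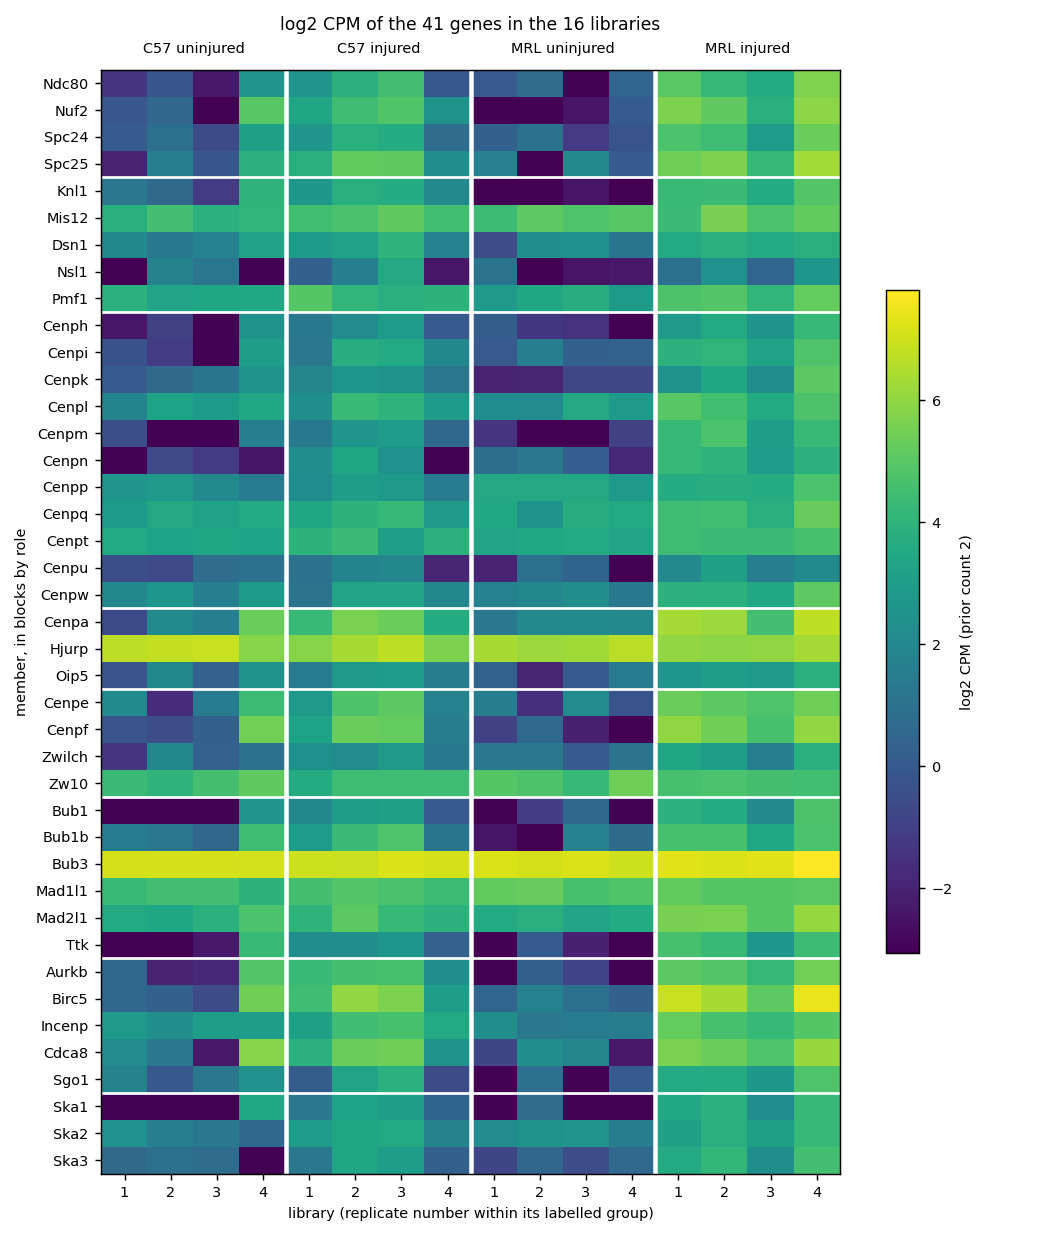
Heat map of log2 CPM (prior count 2) for the 41 genes, in blocks by role, in the 16 libraries grouped by label. The 4 injured MRL libraries are bright for most rows, uninjured libraries are dark, and the column of C57 uninjured replicate 4 stands above its group for 29 of 41 genes, while Bub3 and Hjurp are bright in all 16 columns.

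**Figure D2:**
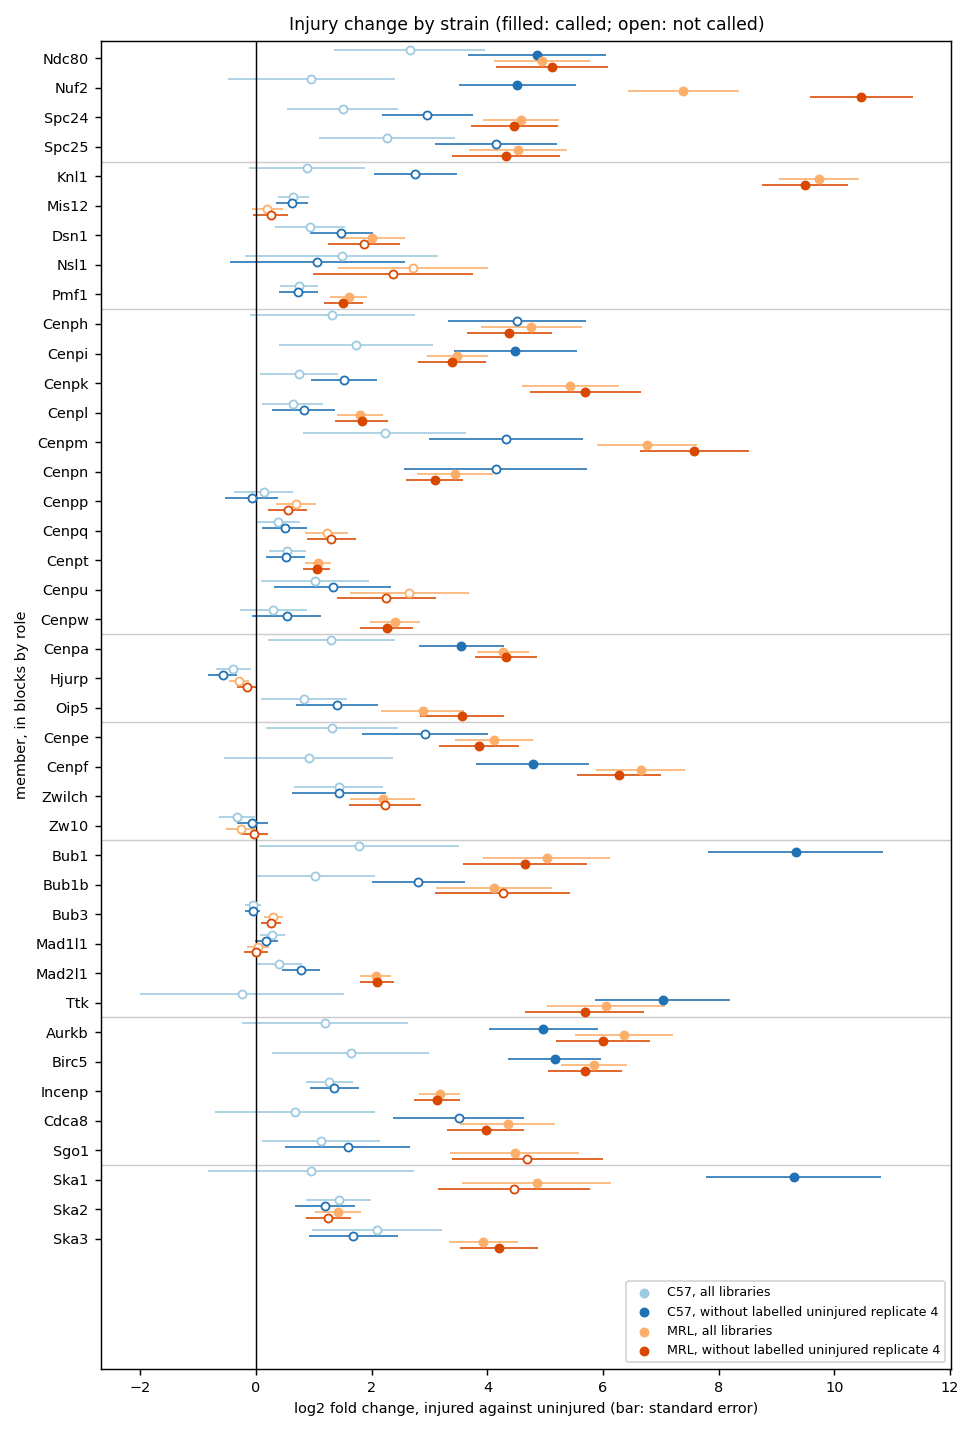
Log2 fold change at 7 dpi against uninjured tendon for each of the 41 genes, with its standard error, in C57 and MRL with all libraries and without those labelled uninjured replicate 4. Filled points mark the 32 and 26 members called in MRL and the 10 called in C57 without that library, and open points those not called.

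Macrophage markers moved with injury in both strains. The 8 listed summed to between 3539 and 6249 CPM in injured MRL tendon and 953 to 1574 CPM in uninjured MRL tendon, and to between 4736 and 8015 CPM in injured C57 tendon and 763 to 1650 CPM in uninjured C57 tendon, with none at 0 in any library. Their part in the change of the kinetochore genes was not tested. Lymphocyte markers (6 listed) summed to 0.436 to 1.91 CPM in uninjured and 4.74 to 8.01 CPM in injured MRL tendon. In C57 they summed to 0.0675 to 1.17 CPM and 3.31 to 13.3 CPM. The mean of Cd2 in MRL went from 0.418 to 6.16 CPM and that of Cd3g from 0.119 to 0.335 CPM. Cd3e, Cd79a, Cd79b and Ms4a1 were at most 0.179 CPM in uninjured MRL tendon and lower after injury. Skeletal muscle markers (12 listed) summed to 71298 CPM in C57 injured replicate 1 and 1975 CPM in replicate 2, and lay between 7.57 and 39.98 CPM in the other 14 libraries. In bulk tissue fewer dividing cells and less mRNA per dividing cell cannot be told apart.

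Because 32 members rose together in MRL tendon, promoters of the 41 were searched for shared motifs. RefSeq promoter windows (GRCm38.p6) matched 35 of the 41, and the 150 bases before the transcription start were searched on both strands for CCAAT (or ATTGG), which NF-Y binds, for TTTGAA (or TTCAAA), the cell cycle homology region used by the DREAM complex, and for GCGGGAA (or TTCCCGC), an E2F site. A gene with several windows was counted when any of them held the motif. CCAAT was held by 19 of 35 members (54.3%) and by 27.7% of the 27025 genes with a window. The share was 15 of 27 among members called in MRL with all libraries and 4 of 8 among those not called, and the splits that follow use the same calls. TTTGAA was held by 6 of 35 (17.1%) against 10.5% of all genes, and by 4 of 27 called and 2 of 8 not called. GCGGGAA was held by 3 of 35 (8.57%) against 3.03%, and by 3 of 27 called and 0 of 8 not called. CCAAT together with TTTGAA was held by 2 of 27 called (Cenpw and Cenpn) and 1 of 8 not called (Bub3), against 2.63% of all genes. The 6 windows below, in lower case with matches in capitals, are those of Bub1, Ttk and Cenpf, called in MRL and in C57 without the library labelled replicate 4, of Cenpw and Cenpn, chosen because they hold CCAAT or its reverse ATTGG together with TTCAAA and not for their change, and of Knl1, called in MRL, which held none of the 3.
Bub1 (chr2:127831860-127832009, minus strand): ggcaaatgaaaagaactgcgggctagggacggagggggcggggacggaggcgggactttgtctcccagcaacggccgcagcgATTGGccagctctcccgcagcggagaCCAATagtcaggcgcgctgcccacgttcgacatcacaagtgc
Ttk (chr9:83834539-83834688, plus strand): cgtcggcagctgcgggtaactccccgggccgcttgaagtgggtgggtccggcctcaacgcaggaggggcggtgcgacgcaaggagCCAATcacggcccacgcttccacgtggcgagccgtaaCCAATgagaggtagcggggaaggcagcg
Cenpf (chr1:189688087-189688236, minus strand): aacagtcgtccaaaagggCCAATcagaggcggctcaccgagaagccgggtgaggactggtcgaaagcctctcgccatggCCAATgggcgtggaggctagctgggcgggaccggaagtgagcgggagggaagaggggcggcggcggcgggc
Cenpw (chr10:30200541-30200690, minus strand): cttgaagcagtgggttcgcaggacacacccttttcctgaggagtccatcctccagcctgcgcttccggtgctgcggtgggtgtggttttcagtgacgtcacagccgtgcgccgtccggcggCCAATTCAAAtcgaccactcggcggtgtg
Cenpn (chr8:116921590-116921739, plus strand): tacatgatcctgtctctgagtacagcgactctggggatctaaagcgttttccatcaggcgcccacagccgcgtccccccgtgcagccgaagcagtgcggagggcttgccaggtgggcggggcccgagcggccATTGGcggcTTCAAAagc
Knl1 (chr2:119046969-119047118, plus strand): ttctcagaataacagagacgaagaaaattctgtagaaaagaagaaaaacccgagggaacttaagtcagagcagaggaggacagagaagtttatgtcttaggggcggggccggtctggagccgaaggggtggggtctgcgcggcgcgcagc
In Cenpw the 2 matches share 1 base, and CCAAT starts 29 and TTCAAA 25 bases before the start. Cenpn holds ATTGG at 18 and TTCAAA at 9 bases before the start. Starts here are those of RefSeq, and the GENCODE M21 annotation starts Cenpn at 116921730, inside the window shown. Bub1 holds ATTGG at 68 and CCAAT at 42 bases before the start, Ttk CCAAT at 65 and 28, and Cenpf CCAAT at 132 and 71. A match is a string of letters and was not tested as a binding site, and the absence of one in Knl1 covers this window only.

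In the accounts that follow, "without replicate 4" means without the library of that strain labelled uninjured replicate 4, and values in parentheses are log2 fold changes of injured over uninjured tendon ± SE with the adjusted p of edgeR. Plain CPM values are not to be compared between genes, since they do not allow for gene length.

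The Ndc80 complex is the rod that grips the microtubule, with Ndc80 and Nuf2 at its outer end and Spc24 and Spc25 at its inner end. All 4 members rose in MRL tendon. Spc25 (chr2:69193895-69206194, minus strand, in GRCm38 coordinates of the GENCODE M21 annotation, as for the genes that follow) measured 3.05, 0, 4.0005 and 0.955 CPM in the 4 uninjured MRL libraries and 42.6, 50.1, 17.96 and 77.2 CPM in the injured ones. The groups did not overlap, and the log2 fold change was 4.54 ± 0.85 (SE, adjusted p = 0.00932), or 4.32 ± 0.93 (adjusted p = 0.0269) without replicate 4. In C57 it measured 0.135, 2.86, 0.781 and 14.9 CPM uninjured, the last value being the labelled replicate 4, and 13.8, 36.6, 35.8 and 4.97 CPM injured. Its log2 fold change there was 2.26 ± 1.18 (adjusted p = 0.397), and 4.15 ± 1.06 (adjusted p = 0.0620) without that library, so it passed in neither fit.

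Spc24 (chr9:21755442-21760303, minus strand), its partner, went from 1.13, 1.89, 0.299 and 0.716 CPM to 26.1, 21.6, 7.42 and 40.4 CPM in MRL (4.59 ± 0.65, adjusted p = 0.00304, and 4.46 ± 0.75, adjusted p = 0.0113, without replicate 4). C57 values were 0.945, 1.76, 0.547 and 8.66 CPM uninjured and 5.98, 14.01, 12.7 and 1.66 CPM injured (1.4996 ± 0.96, adjusted p = 0.496, and 2.96 ± 0.79, adjusted p = 0.0623, without replicate 4). Nuf2 was close to undetected in uninjured MRL tendon, at 0, 0, 0.0597 and 0.955 CPM, and reached 49.8, 34.9, 14.05 and 59.9 CPM in injured MRL tendon (7.39 ± 0.96, adjusted p = 0.00199). Without replicate 4 it had 1 count in 3 uninjured MRL libraries, a ratio of 1770 with an exact 95% counting interval of 318 to 69949 (adjusted p = 0.00292), and the injured mean was 199 times the level of 3 counts per library. Uninjured C57 libraries gave 0.810, 1.30, 0 and 31.6 CPM and injured ones 9.84, 22.2, 29.1 and 5.52 CPM. The labelled replicate 4 was thus higher than any injured C57 library. The log2 fold change of Nuf2 in C57 was 0.95 ± 1.45 (adjusted p = 0.810) with it and 4.52 ± 1.02 (adjusted p = 0.0361) without it. Ndc80, the partner of Nuf2, measured 0.270, 0.780, 0.0781 and 5.90 CPM in uninjured and 6.04, 15.03, 23.5 and 0.8285 CPM in injured C57 tendon (2.66 ± 1.31, adjusted p = 0.374, and 4.85 ± 1.19, adjusted p = 0.0480, without replicate 4), so it was called in C57 in the second fit alone. In MRL it went from 0.862, 1.67, 0 and 1.27 CPM to 32.2, 17.9, 12.05 and 52.2 CPM (4.94 ± 0.83, adjusted p = 0.00569, and 5.12 ± 0.97, adjusted p = 0.0173, without replicate 4).

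Knl1 is the scaffold that the Bub proteins dock on, and Mis12, Dsn1, Nsl1 and Pmf1 form the complex that ties the outer kinetochore to the centromere. Of these 5, Knl1, Dsn1 and Pmf1 rose in MRL tendon. Knl1 (chr2:119047119-119105501, plus strand) had 1 count in all over the 4 uninjured MRL libraries and 19.3, 20.1, 12.1 and 29.2 CPM in the injured ones. The ratio of the groups was 1146, with an exact 95% counting interval of 205 to 45293 that leaves out the spread between tendons, and that count is below the limit of detection. The injured mean was 96.7 times the level of 3 counts per uninjured library. Its fitted log2 fold change of 9.73 ± 0.70 (adjusted p = 0.000273) depends on the prior count. Without replicate 4 the ratio was 898, with an interval of 161 to 35504 (adjusted p = 0.00260), and the injured mean was 102 times that level. Uninjured C57 tendon measured 2.23, 1.496, 0.312 and 15.7 CPM and injured C57 tendon 6.35, 13.8, 12.7 and 4.07 CPM. The 3 uninjured C57 libraries other than the labelled replicate 4 all lay above the 4 uninjured MRL ones. The C57 change did not pass, at 0.88 ± 1.00 (adjusted p = 0.733) or 2.76 ± 0.72 (adjusted p = 0.0572) without that library.

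Mis12 and Nsl1, which sit in one complex with Dsn1 and Pmf1, were not called in either strain. Mis12 (chr11:71019611-71027371, plus strand) measured 20.6, 34.6, 27.8 and 31.04 CPM uninjured and 20.4, 46.8, 26.6 and 36.2 CPM injured in MRL, and the groups overlapped (0.19 ± 0.27, adjusted p = 0.684, and 0.25 ± 0.31, adjusted p = 0.655, without replicate 4). C57 values were 13.4, 23.6, 14.7 and 16.2 CPM and 22.9, 25.2, 35.7 and 22.8 CPM (0.64 ± 0.27, adjusted p = 0.301, and 0.62 ± 0.28, adjusted p = 0.239, without replicate 4). Of its exonic bases, 7.7% overlap those of the opposite-strand gene Derl2, and the strand setting of the counting is not given in the sources used here. Nsl1 (chr1:191063012-191086474, plus strand) was at 2.06, 0, 0.0597 and 0.0796 CPM and 1.77, 5.36, 1.29 and 6.16 CPM in MRL (2.71 ± 1.30, adjusted p = 0.198, and 2.37 ± 1.39, adjusted p = 0.324, without replicate 4) and at 0, 3.32, 2.19 and 0 CPM and 1.12, 2.95, 11.3 and 0.0690 CPM in C57 (1.48 ± 1.66, adjusted p = 0.727, and 1.06 ± 1.51, adjusted p = 0.738, without replicate 4). Its levels in injured C57 tendon spread from 0.0690 to 11.3 CPM. Dsn1 lost its call in MRL without replicate 4 (2.01 ± 0.56, adjusted p = 0.0459, and 1.87 ± 0.62, adjusted p = 0.102, without replicate 4), whereas Pmf1 kept it (1.60 ± 0.32, adjusted p = 0.0120, and 1.51 ± 0.34, adjusted p = 0.0316, without replicate 4).

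The constitutive network is the set of CENP proteins that stay on the centromere and carry the outer kinetochore, Cenpt holding the Ndc80 complex directly. In MRL tendon 8 of its 11 members rose (Cenph, Cenpi, Cenpk, Cenpl, Cenpm, Cenpn, Cenpt and Cenpw), and Cenpp, Cenpq and Cenpu were not called. Cenpt (chr8:105844673-105853278, minus strand) went from 9.49, 10.5, 11.8 and 9.47 CPM to 21.5, 20.01, 20.05 and 24.8 CPM (1.07 ± 0.22, adjusted p = 0.0139, and 1.05 ± 0.23, adjusted p = 0.0296, without replicate 4). In C57 it measured 11.3, 9.30, 10.3 and 9.25 CPM uninjured and 15.3, 20.4, 8.31 and 14.98 CPM injured (0.54 ± 0.32, adjusted p = 0.461, and 0.51 ± 0.33, adjusted p = 0.422, without replicate 4). The 4 uninjured C57 libraries lay close together for Cenpt, the labelled replicate 4 included. Cenpu (chr8:46552028-46580007, plus strand) measured 0.133, 1.75, 1.25 and 0 CPM uninjured and 3.99, 8.61, 2.89 and 4.27 CPM injured in MRL (2.65 ± 1.03, adjusted p = 0.125, and 2.26 ± 0.85, adjusted p = 0.139, without replicate 4), and 0.607, 0.520, 1.64 and 1.77 CPM and 1.87, 3.49, 3.78 and 0.138 CPM in C57 (1.01 ± 0.94, adjusted p = 0.654, and 1.32 ± 1.01, adjusted p = 0.501, without replicate 4). It is an uncertain count, since 26.7% of its exonic bases overlap Primpol on the other strand.

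Among the rest of the network the largest fitted change in MRL was that of Cenpm, which went from 0.265, 0, 0 and 0.398 CPM to 18.3, 25.9, 8.09 and 19.1 CPM (6.76 ± 0.87, adjusted p = 0.00187, and 7.58 ± 0.94, adjusted p = 0.00441, without replicate 4). Cenpm had 4, 0, 0 and 5 counts in those uninjured libraries, so the size of the fold depends on the prior count. In C57 it lay at 0.607, 0, 0 and 2.95 CPM uninjured and 2.37, 5.95, 7.43 and 1.38 CPM injured (2.23 ± 1.41, adjusted p = 0.490, and 4.32 ± 1.33, adjusted p = 0.0968, without replicate 4). Cenpi, its partner in a subcomplex with Cenph and Cenpk, was the member of the network called in C57 without replicate 4 (1.73 ± 1.34, adjusted p = 0.581, and 4.48 ± 1.06, adjusted p = 0.0409, without replicate 4). It measured 0.675, 0.325, 0 and 8.13 CPM in uninjured and 2.24, 13.0, 11.8 and 3.94 CPM in injured C57 tendon. In MRL it went from 0.862, 2.98, 1.13 and 1.19 CPM to 14.9, 16.3, 9.02 and 28.1 CPM (3.48 ± 0.52, adjusted p = 0.00386, and 3.38 ± 0.59, adjusted p = 0.0127, without replicate 4). Cenph had 4.76 ± 0.88 in MRL, or 4.38 ± 0.73 without replicate 4, and Cenpk 5.44 ± 0.83, or 5.70 ± 0.97. Cenpn, which reads the CENP-A nucleosome, had 3.44 ± 0.65, or 3.09 ± 0.49 without replicate 4. Cenpl, its partner, had 1.79 ± 0.40, or 1.83 ± 0.45, and Cenpw, a histone-fold protein that pairs with Cenpt, had 2.40 ± 0.44, or 2.26 ± 0.46. Cenpn was the member not tested in C57 with all libraries, since it lay above the filter's 0.689 CPM in 3 injured C57 libraries and in no uninjured one.

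Cenpa encodes the histone variant itself, Hjurp the chaperone that deposits it, and Oip5 a subunit of the complex that licenses that deposition. Cenpa and Oip5 rose in MRL tendon, whereas Hjurp did not. Cenpa measured 2.32, 4.07, 4.30 and 3.98 CPM in uninjured and 80.2, 70.8, 23.1 and 107 CPM in injured MRL tendon (4.27 ± 0.45, adjusted p = 0.00112, and 4.32 ± 0.54, adjusted p = 0.00441, without replicate 4). In C57 it measured 0.540, 4.16, 2.97 and 40.3 CPM and 18.8, 48.5, 40.99 and 12.5 CPM, so that the labelled replicate 4 lay within the injured range. Cenpa was called in C57 in the fit without that library (1.30 ± 1.10, adjusted p = 0.616, and 3.55 ± 0.74, adjusted p = 0.0287, without replicate 4). Hjurp (chr1:88262471-88277633, minus strand) was counted in every library, at 104, 110.0, 118 and 56.8 CPM in uninjured C57, 57.2, 83.0, 107 and 50.7 CPM in injured C57, 83.2, 71.5, 76.5 and 103 CPM in uninjured MRL and 65.4, 59.8, 64.3 and 81.7 CPM in injured MRL tendon. It was not called in C57 (-0.39 ± 0.30, adjusted p = 0.578, and -0.58 ± 0.25, adjusted p = 0.228, without replicate 4) or in MRL (-0.29 ± 0.17, adjusted p = 0.298, and -0.16 ± 0.16, adjusted p = 0.573, without replicate 4), and its fold change was below 0 in all 4 fits. Oip5 (chr2:119609512-119618469, minus strand) measured 1.19, 0.146, 0.896 and 2.55 CPM and 6.09, 8.11, 6.76 and 14.3 CPM in MRL (2.88 ± 0.72, adjusted p = 0.0299, and 3.56 ± 0.72, adjusted p = 0.0220, without replicate 4), and 0.742, 3.64, 1.17 and 5.38 CPM and 2.62, 6.73, 7.49 and 2.83 CPM in C57 (0.83 ± 0.74, adjusted p = 0.640, and 1.40 ± 0.71, adjusted p = 0.298, without replicate 4). Exons of Nusap1 on the other strand overlap 9.7% of its exonic bases.

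The fibrous corona is the outermost layer, where the motor Cenpe and the large coiled-coil protein Cenpf sit, and Zwilch and Zw10 belong to the RZZ complex that brings dynein and the Mad proteins to it. Cenpe, Cenpf and Zwilch rose in MRL tendon and Zw10 did not. Cenpf measured 0.398, 1.46, 0.119 and 0 CPM in uninjured and 63.1, 43.05, 24.7 and 65.1 CPM in injured MRL tendon (6.65 ± 0.78, adjusted p = 0.00133, and 6.28 ± 0.72, adjusted p = 0.00386, without replicate 4). Uninjured C57 tendon held 0.742, 0.585, 1.09 and 44.4 CPM and injured C57 tendon 9.28, 39.9, 37.7 and 2.83 CPM, the labelled replicate 4 being the highest of the 8. The log2 fold change of Cenpf in C57 was 0.91 ± 1.46 (adjusted p = 0.821) with that library and 4.79 ± 0.98 (adjusted p = 0.0268) without it. Zw10 (chr9:49055613-49078775, plus strand), which also has a role in membrane traffic of non-dividing cells, measured 30.2, 27.1, 18.3 and 41.9 CPM and 25.04, 25.97, 23.96 and 22.4 CPM in MRL (-0.26 ± 0.25, adjusted p = 0.528, and -0.03 ± 0.23, adjusted p = 0.955, without replicate 4) and 20.3, 15.8, 23.8 and 34.9 CPM and 12.3, 21.5, 21.5 and 21.3 CPM in C57 (-0.32 ± 0.31, adjusted p = 0.672, and -0.07 ± 0.27, adjusted p = 0.916, without replicate 4). Zwilch (chr9:64137144-64173104, minus strand) went from 2.32, 2.33, 0.955 and 2.07 CPM to 9.84, 7.88, 2.98 and 13.98 CPM in MRL (2.19 ± 0.56, adjusted p = 0.0327, and 2.23 ± 0.63, adjusted p = 0.0626, without replicate 4), its call being lost in the second fit. In C57 Zwilch measured 0.270, 3.77, 1.17 and 1.77 CPM and 5.17, 4.45, 6.99 and 2.42 CPM (1.43 ± 0.77, adjusted p = 0.410, and 1.44 ± 0.81, adjusted p = 0.350, without replicate 4). For Zw10 the labelled replicate 4 was the highest uninjured library in both strains. Cenpe was called in MRL (4.11 ± 0.67, adjusted p = 0.00524, and 3.85 ± 0.69, adjusted p = 0.0137, without replicate 4) and in neither fit in C57 (1.32 ± 1.14, adjusted p = 0.630, and 2.92 ± 1.10, adjusted p = 0.176, without replicate 4).

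The checkpoint proper consists of the kinases Ttk and Bub1, the related protein Bub1b, and Bub3, Mad1l1 and Mad2l1, which assemble the inhibitor of the anaphase-promoting complex. In MRL tendon Bub1, Bub1b, Mad2l1 and Ttk rose, and Bub3 and Mad1l1 did not. Bub3 (chr7:131560222-131571895, plus strand), which partners Bub1 and Bub1b, measured 138, 137, 135 and 133 CPM in uninjured C57, 126, 123, 143 and 135 CPM in injured C57, 144, 139, 151 and 124 CPM in uninjured MRL and 155, 148, 157 and 222 CPM in injured MRL tendon. It was not called in C57 (-0.05 ± 0.14, adjusted p = 0.906, and -0.06 ± 0.13, adjusted p = 0.8497, without replicate 4) or in MRL (0.30 ± 0.17, adjusted p = 0.269, and 0.26 ± 0.17, adjusted p = 0.391, without replicate 4). Bub1 (chr2:127801122-127831865, minus strand) measured 0, 0.364, 1.37 and 0 CPM and 14.7, 12.5, 4.05 and 27.4 CPM in MRL (5.03 ± 1.10, adjusted p = 0.0181, and 4.65 ± 1.07, adjusted p = 0.0338, without replicate 4). In C57 it measured 0, 0, 0 and 6.03 CPM uninjured and 3.74, 7.75, 8.88 and 0.898 CPM injured. With all libraries the C57 change of Bub1 was 1.78 ± 1.73 (adjusted p = 0.676). Without the labelled replicate 4 no read of Bub1 was left in uninjured C57 tendon (adjusted p = 0.0174). The injured mean was 25.2 times the level of 3 counts per library, taken as a lower bound of its fold.

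Ttk, the kinase that starts the checkpoint, had 0, 0, 0.0781 and 19.4 CPM in uninjured and 4.67, 4.81, 6.11 and 1.17 CPM in injured C57 tendon, so that the labelled replicate 4 stood above all 4 injured C57 libraries. With that library the log2 fold change in C57 was below 0, at -0.25 ± 1.76 (adjusted p = 0.966). Without it 1 count was left in 3 libraries, the ratio was 183 with an exact 95% counting interval of 32.6 to 7272, the injured mean was 19.9 times the level of 3 counts per library, and Ttk was called higher (adjusted p = 0.0118). In MRL it went from 0, 0.946, 0.119 and 0 CPM to 25.1, 18.8, 6.13 and 20.5 CPM (6.05 ± 1.02, adjusted p = 0.00588, and 5.68 ± 1.02, adjusted p = 0.0141, without replicate 4). Mad2l1, counted in every uninjured library, rose in MRL from 11.7, 13.5, 9.49 and 12.2 CPM to 47.0, 48.9, 30.5 and 68.1 CPM (2.07 ± 0.26, adjusted p = 0.00184, and 2.09 ± 0.30, adjusted p = 0.00658, without replicate 4). Its partner Mad1l1, which also lines nuclear pores in interphase, was not called (0.04 ± 0.19, adjusted p = 0.925, and -0.00 ± 0.21, adjusted p = 0.993, without replicate 4). Bub1b lost its call in MRL in the second fit, with a fold no smaller (4.12 ± 1.00, adjusted p = 0.0270, and 4.26 ± 1.16, adjusted p = 0.0573, without replicate 4).

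**Figure D3:**
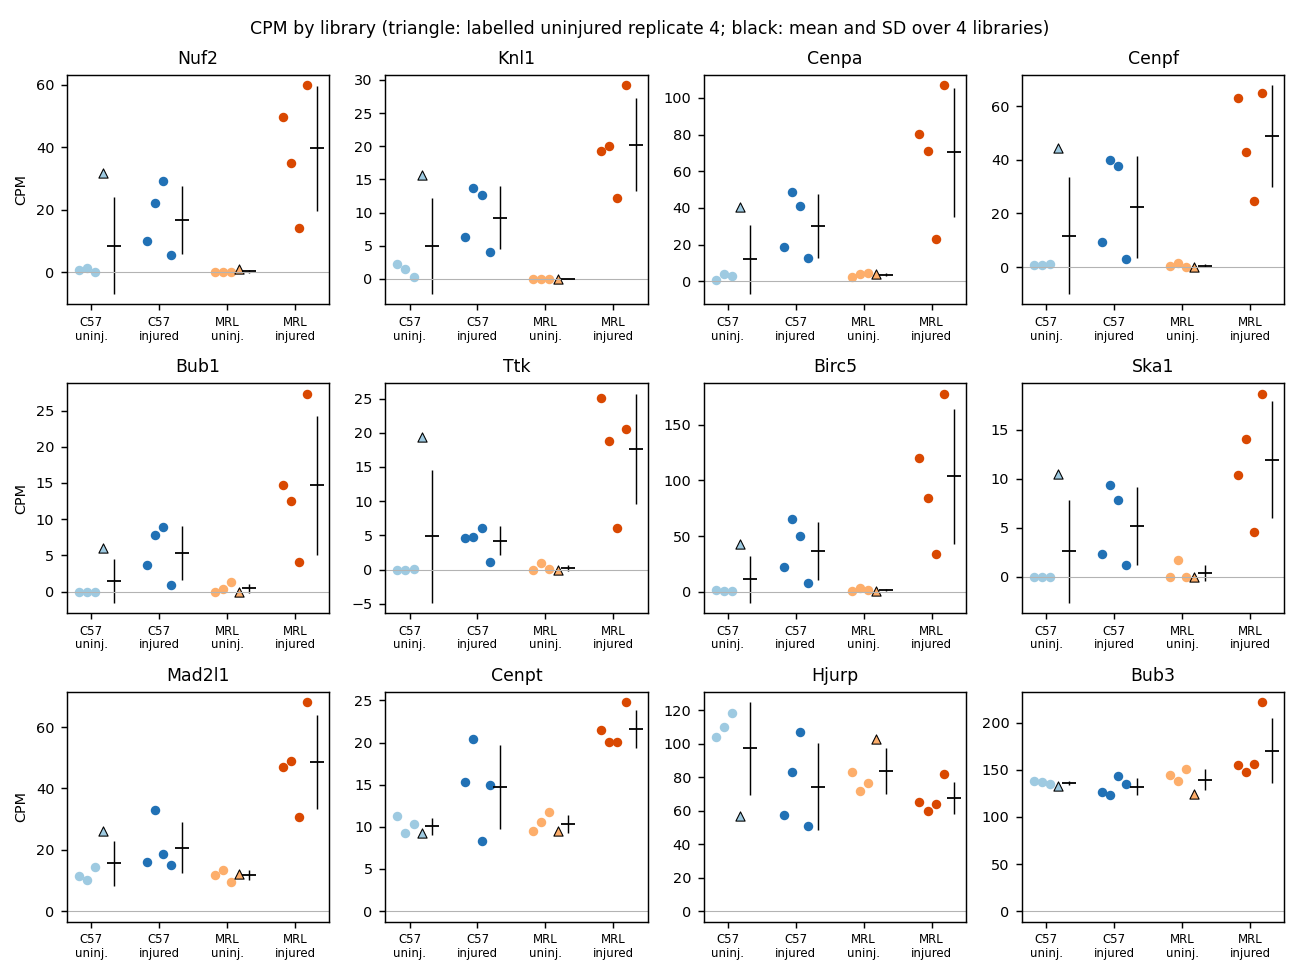
CPM of 12 members in each library, with the mean and SD over the 4 libraries of a labelled group in black and the libraries labelled uninjured replicate 4 as triangles. For Nuf2, Cenpf and Ttk the C57 triangle is above every injured C57 library, whereas for Hjurp and Bub3 injured and uninjured libraries of a strain overlap.

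The chromosomal passenger complex joins the kinase Aurkb to Incenp, Birc5 and Cdca8 and corrects wrong attachments, and shugoshin, Sgo1, protects cohesion at the centromere. All 5 members rose in MRL tendon. Birc5 (chr11:117849251-117855743, plus strand), also known as survivin, went from 1.26, 3.20, 1.73 and 1.11 CPM to 119.8, 83.9, 34.0 and 178 CPM (5.84 ± 0.56, adjusted p = 0.000876, and 5.68 ± 0.64, adjusted p = 0.00375, without replicate 4). C57 values were 1.35, 1.11, 0.547 and 42.9 CPM and 22.1, 65.6, 50.3 and 8.15 CPM. The C57 change of Birc5 was 1.64 ± 1.36 (adjusted p = 0.610) with the labelled replicate 4 and 5.16 ± 0.80 (adjusted p = 0.0108) without it. Aurkb measured 1.42, 0.130, 0.156 and 29.7 CPM in uninjured and 19.5, 24.05, 24.6 and 4.97 CPM in injured C57 tendon (1.19 ± 1.44, adjusted p = 0.752, and 4.97 ± 0.95, adjusted p = 0.0189, without replicate 4). In MRL Aurkb went from 0, 1.09, 0.418 and 0 CPM to 33.2, 29.7, 17.7 and 44.9 CPM, with the groups apart (6.37 ± 0.85, adjusted p = 0.00231, and 6.00 ± 0.81, adjusted p = 0.00560, without replicate 4).

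Incenp, the scaffold of the complex, was counted in every uninjured library. It measured 6.95, 4.94, 7.81 and 8.00 CPM in uninjured and 8.72, 22.1, 24.9 and 11.5 CPM in injured C57 tendon, the labelled replicate 4 included in the narrow uninjured range. It was the member whose C57 groups did not overlap with all libraries, and edgeR called it in neither fit (1.26 ± 0.40, adjusted p = 0.194, and 1.35 ± 0.42, adjusted p = 0.104, without replicate 4). In MRL it went from 4.84, 2.33, 2.45 and 2.71 CPM to 37.2, 24.7, 18.4 and 30.5 CPM (3.18 ± 0.36, adjusted p = 0.00120, and 3.13 ± 0.40, adjusted p = 0.00470, without replicate 4). Cdca8 rose in MRL (4.35 ± 0.82, adjusted p = 0.00964, and 3.97 ± 0.67, adjusted p = 0.0113, without replicate 4). It was at 4.39, 2.28, 0.0781 and 56.9 CPM in uninjured C57 tendon, where the labelled replicate 4 exceeded the highest injured C57 library, 41.9 CPM (0.67 ± 1.38, adjusted p = 0.871, and 3.5032 ± 1.13, adjusted p = 0.127, without replicate 4). Sgo1 (chr17:53674786-53689333, minus strand) measured 0, 1.75, 0 and 0.955 CPM and 11.7, 12.2, 6.53 and 28.1 CPM in MRL (4.47 ± 1.11, adjusted p = 0.0295, and 4.69 ± 1.30, adjusted p = 0.0599, without replicate 4). In C57 it measured 3.37, 0.846, 2.27 and 5.31 CPM and 0.997, 9.74, 14.7 and 0.552 CPM (1.12 ± 1.02, adjusted p = 0.650, and 1.58 ± 1.09, adjusted p = 0.452, without replicate 4).

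The Ska complex steadies the hold of Ndc80 on a shrinking microtubule. Its 3 members rose in MRL tendon with all libraries. Without replicate 4 the call held for Ska3 and was lost for Ska1 and Ska2. Ska1 measured 0, 1.67, 0 and 0 CPM and 10.4, 14.01, 4.58 and 18.7 CPM in MRL (4.85 ± 1.29, adjusted p = 0.0378, and 4.45 ± 1.32, adjusted p = 0.0718, without replicate 4). In C57 it had 0, 0, 0 and 10.5 CPM uninjured and 2.30, 9.38, 7.81 and 1.24 CPM injured (0.95 ± 1.79, adjusted p = 0.854). Without the labelled replicate 4 it had no read in uninjured C57 tendon (adjusted p = 0.0176). The injured mean was 24.6 times the level of 3 counts per library, taken as a lower bound of its fold. Ska2 (chr11:87109234-87124635, plus strand) measured 4.44, 5.38, 5.91 and 2.79 CPM and 8.89, 13.6, 8.40 and 18.4 CPM in MRL (1.42 ± 0.39, adjusted p = 0.0435, and 1.25 ± 0.38, adjusted p = 0.0811, without replicate 4) and 5.33, 2.86, 2.34 and 1.38 CPM and 7.60, 9.80, 11.5 and 3.38 CPM in C57 (1.43 ± 0.57, adjusted p = 0.285, and 1.19 ± 0.52, adjusted p = 0.231, without replicate 4). An overlap with the opposite-strand gene Gm11491 covers 10.1% of its exonic bases. Ska3 rose in MRL (3.93 ± 0.60, adjusted p = 0.00407, and 4.20 ± 0.67, adjusted p = 0.00949, without replicate 4), and it was at 0 in the library labelled C57 uninjured replicate 4, where Ska1 was at 10.5 CPM.

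Whether injury changed the genes differently in the strains was asked with an interaction over all 16 libraries, called at an adjusted p under 0.05. By edgeR 0 of 41 members were called, and 0% of 15947 genes tested. At an unadjusted p under 0.05 stood 13 of the 41, against 12.2% of all genes, and DESeq2 called 2 members, Knl1 and Cenpk, and 0.84% of all genes. The smallest adjusted p of any gene was 0.293, and Knl1, first by unadjusted p, was among the genes with it. Its difference in log2 fold change (MRL minus C57) was 8.76 ± 1.54. Knl1 had 1 count in all in uninjured MRL tendon, so that difference depends on the prior count. The median difference of the members was 1.99, and 0.49 over the 14 tested when at least 10 counts were asked of every library. Without both libraries labelled replicate 4, 0 of 41 members and 0% of 16391 genes were called, 7 members had an unadjusted p under 0.05, against 10.6% of all genes, and the median difference was 0.73. The interaction of Knl1 was then 6.65 ± 1.15 (adjusted p = 0.0906), with the same dependence. The MRL and C57 calls given above are thus not shown to differ between the strains.

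The injured libraries were also compared directly, which leaves out all uninjured libraries. By edgeR 0 of 41 members were called in MRL against C57 at 7 dpi, where 3.43% of 14626 genes were called in either direction. The difference was positive for 39 of 41, with a median log2 difference of 1.04, while that of all tested genes was -0.06, and 11 members had an unadjusted p under 0.05, against 21.2% of all genes. The smallest adjusted p-values were those of Mad2l1 (1.18 ± 0.32, adjusted p = 0.0703), Ttk (2.02 ± 0.55, 0.0739), Cenpm (2.01 ± 0.56, 0.0766) and Cenpp (1.53 ± 0.43, 0.0784), and these were the 4 members that DESeq2 called, where it called 7.91% of all genes. For Cenpm, Cenpp, Cenpw, Zw10, Bub3, Mad1l1 and Ttk every injured MRL library lay above every injured C57 one, an order found in 8.92% of tested genes. Mad2l1 did not have it, since C57 injured replicate 2 (33.003 CPM) exceeded MRL injured replicate 3 (30.5 CPM). The injured MRL libraries had more counts than the injured C57 ones, with medians of 23460700 and 14560200 in all. Myofibroblast markers (4 listed) summed to 39.2 to 312 CPM in injured MRL and 808 to 1951 CPM in injured C57 tendon, and endothelial markers (5 listed) to 0.0824 to 24.1 CPM and 83.8 to 132 CPM, and the part of either in these differences was not tested.

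Between uninjured tendons of the strains 0 of 32 members tested were called, and 0% of 14055 genes. The members at an unadjusted p under 0.05 were 7, against 7.87% of all genes, and DESeq2 called 0 members and 0.455% of all genes. With the replicate number as a block the count was 0 as well. Without both libraries labelled replicate 4, 3.48% of 14274 genes were called and 0 of 33 members, with 5 members at an unadjusted p under 0.05, against 18% of all genes. In that fit of edgeR Hjurp had an adjusted p of 0.0361 (-0.53 ± 0.12, MRL over C57) and missed the call by the fold threshold alone. Cenpp (1.03 ± 0.40, MRL over C57, adjusted p = 0.621, and without both libraries 0.97 ± 0.34, adjusted p = 0.147) and Mad1l1 were higher in every uninjured MRL library than in every uninjured C57 one, an order that 2.92% of tested genes had. Knl1, Cenpk (-3.05 ± 0.91, adjusted p = 0.621, and -2.54 ± 1.01, adjusted p = 0.215) and Incenp were lower in every one, where 2.08% of tested genes were. Knl1 itself passed the filter in neither fit. Without both libraries labelled replicate 4 these counts were 5 higher and 5 lower, against 12.8% and 11.9% of tested genes. Of the exonic bases of Cenpp, 12.3% overlap the opposite-strand gene Ippk and others overlap Aspn, and the strand setting of the counting is not given.

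Tendons of one injured group differed in these genes. MRL injured replicate 4 had the highest level of its group for 32 of 41 members, against 32.2% of the 15947 genes tested over all libraries, and MRL injured replicate 3 the lowest for 33, against 20.2%. In injured C57 tendon replicate 3 was highest for 24 members, against 26.6% of genes, replicate 2 for 16, against 20.4%, and replicate 4 was lowest for 32, against 21.1%. The mean log2 CPM over the 41 genes was 4.43, 4.49, 3.62 and 5.004 in injured MRL tendon and 2.87, 3.94, 4.03 and 1.89 in injured C57 tendon. Uninjured libraries lay between 0.67 and 1.22, except the labelled C57 replicate 4 at 3.12. The injured groups overlapped, the lowest MRL library lying below the highest 2 of C57.

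Genes that mark dividing cells were read beside them. The 10 cycling-cell genes listed (Mki67, Top2a, Pcna, Cdk1, Ccnb1, Ccna2, Mcm2, Mcm5, Rrm2 and Tyms) summed to 796, 864, 434 and 1383 CPM in injured MRL tendon and to 252, 449, 606 and 161 CPM in injured C57 tendon. In uninjured tendon they summed to 81.4 to 117 CPM, and to 394 CPM in the labelled C57 replicate 4. Of the 10, 9 were called higher in MRL (all but Pcna), against 5.25% of all tested genes. Without the labelled MRL replicate 4 the same 9 were called, against 4.68%. In C57 edgeR called 0 of the 10, against 0.908% of all genes called higher, and DESeq2 0, against 5.24% called in either direction. At an unadjusted p under 0.05 stood 1 of them, against 15.3%, and edgeR called 5 without the labelled C57 replicate 4, against 3.5%. Of 31 further kinetochore and checkpoint genes in the table, 30 were tested in MRL and 9 were called higher, Cdc20, Kif2c and Plk1 among them, against the same 5.25%, with a median log2 fold change of 0.42 over the 30. Without the labelled replicate 4 this was 8 of 31, against 4.68% of all genes, with a median of 0.48. In C57 edgeR called 0 of 31 and DESeq2 2, with 5 at an unadjusted p under 0.05, and edgeR called 3, Plk1 among them, without that library, against the shares given for the cycling-cell genes.

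**Figure D4:**
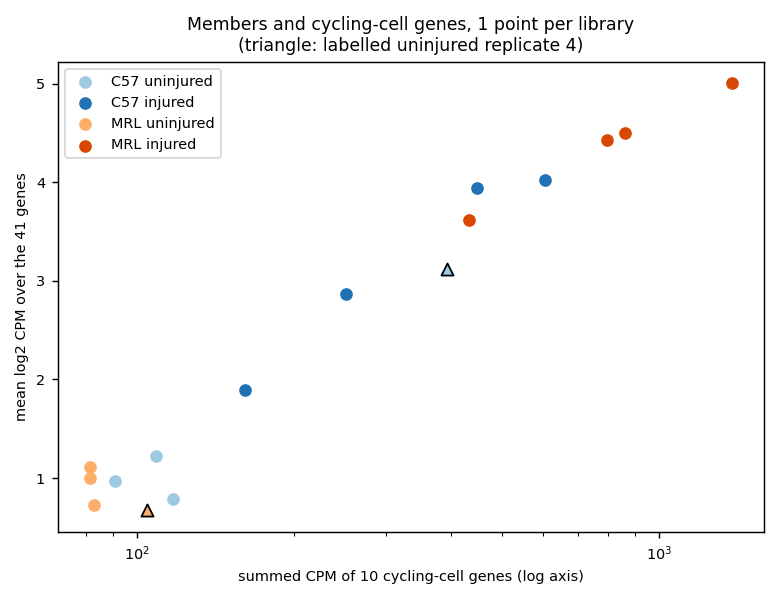
Mean log2 CPM over the 41 genes against the summed CPM of the 10 cycling-cell genes on a log axis, 1 point per library. Uninjured libraries sit at 81.4 to 117 CPM on the x axis with the labelled C57 replicate 4 (triangle) apart at 394 CPM, and injured MRL libraries reach the top right.

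Levels were compared between members only per kb of merged exon. In injured MRL tendon the highest were Birc5 at 30.5 ± 17.8 CPM per kb (SD, n = 4), Bub3 at 24.3 ± 4.96 and Spc25 at 14.7 ± 7.65, and the lowest was Nsl1 at 0.69 ± 0.47. In uninjured MRL tendon Bub3 (19.9 ± 1.62 CPM per kb), Hjurp (10.02 ± 1.65), Mis12 (9.49 ± 1.98), Mad1l1 (8.74 ± 1.75) and Zw10 (7.67 ± 2.55) led, and these 5 were among the 9 members not called after injury. Within complexes the level per kb was uneven: in injured MRL tendon Mis12 stood at 10.8 ± 3.85 and its partner Nsl1 at 0.69 ± 0.47, while Spc24 and Spc25, at 9.29 ± 5.29 and 14.7 ± 7.65, differed by less than their spread. Neighbours in this order, such as Cenpa (11.99 ± 5.97), Cenpm (11.1 ± 4.55), Mis12 and Aurkb (10.7 ± 3.81), also lay within their spread.

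**Figure D5:**
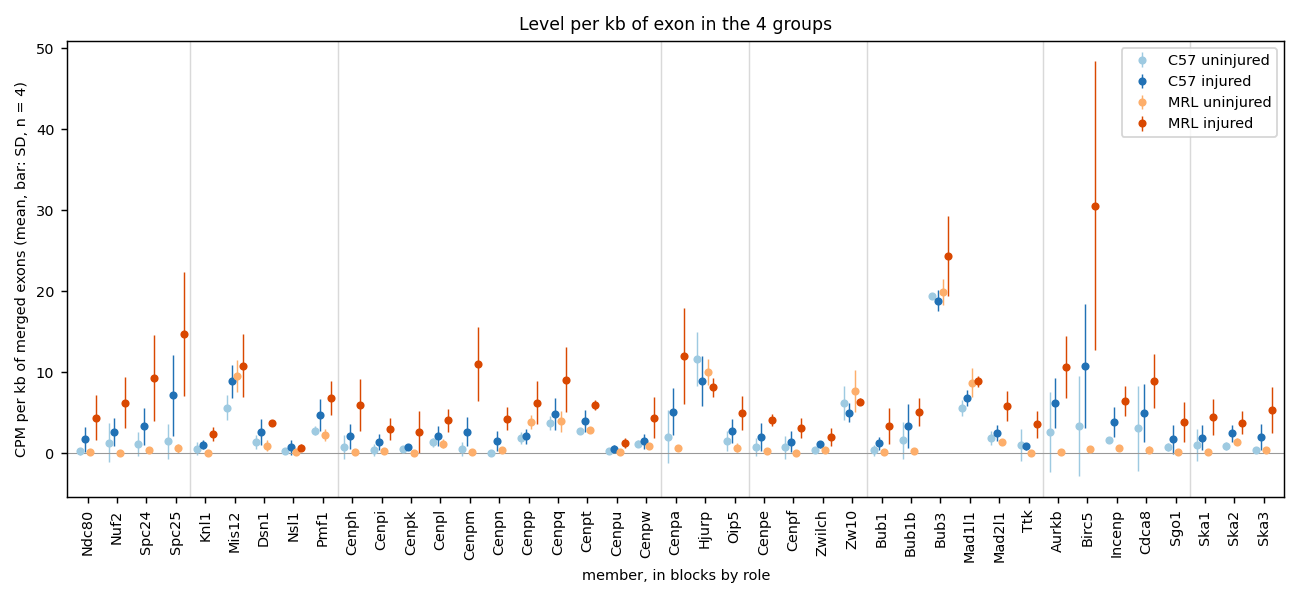
Level per kb of merged exon (mean CPM per kb, bars SD, n = 4 libraries) for the 41 genes in the 4 labelled groups. Bub3, Hjurp, Mis12, Mad1l1 and Zw10 stand high in uninjured as well as injured tendon, and Birc5, Spc25 and Cenpa are high in injured MRL tendon.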

How the data were processed

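RNA-seq of 16 single tendons was analysed from the gene count table. The authors deposited raw counts per gene symbol. Per the labels and the submitters' processing notes, reads (100 nt, single-end) passed through Trimmomatic 0.36 and were aligned to GRCm38.p5 with STAR 2.5.2b and counted with featureCounts of Subread 1.5.0p3, and DESeq2 1.14.1 is listed as well. The strand setting and gene annotation are not given in the sources used here. The labels name TruSeq libraries whereas the methods describe pre-amplification of low-input RNA, and no molecular identifiers were used, so intervals and limits cover counting error only.

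Counts were fitted with the robust quasi-likelihood test of edgeR 4.0.16 in R 4.3.3, with TMM factors and the filterByExpr filter, on the 2 groups compared or, for the interaction, on all 16 libraries. P-values were adjusted over all genes tested, and SE was the log2 fold change divided by the root of F. Alternatives were DESeq2 1.42.0, other scalings and filters, a fit over all 16 libraries and leaving out libraries. Levels per kb used merged exons of GENCODE M21.

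The members, lists and tests were chosen with earlier results of these data known. Values in each library and full statistics were given for the highest and lowest member of each role by mean CPM and for members called in C57, also without the labelled replicate 4, and folds for members called in MRL, as a bound or counting ratio where uninjured counts were at or near 0. Further members were given values after theirs had been seen (Cdca8, Cenpm, Incenp, Knl1, Mad2l1). Same-numbered uninjured libraries are different animals, and their deviations correlated at -0.26 to 0.016. The names of some listed genes that are not members are not reported here.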

Additional observations from a re-analysis of the deposited data

Results flagged for a closer look

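Each member's 4 values in a labelled group were checked for a highest or lowest library standing apart from the other 3 (gap over range above Dixon's critical value). This was so in 28 of 164 groups (17.1%) and in 12.1% of the groups of all 15947 genes. Chance gives about 1 in 20 for normally distributed values, which low counts are not, and in 8 of the 28 the other 3 libraries held at most 3 counts each.

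In 15 of these the library was that labelled C57 uninjured replicate 4, always as the highest. Its values were 5.90 CPM for Ndc80, 31.6 CPM for Nuf2, 8.66 CPM for Spc24 and 15.7 CPM for Knl1 among outer kinetochore genes. Centromere and corona genes stood at 5.44 CPM for Cenph, 8.13 CPM for Cenpi, 40.3 CPM for Cenpa and 44.4 CPM for Cenpf. Checkpoint, passenger and Ska genes stood at 6.03 CPM for Bub1, 21.6 CPM for Bub1b, 19.4 CPM for Ttk, 29.7 CPM for Aurkb, 42.9 CPM for Birc5, 56.9 CPM for Cdca8 and 10.5 CPM for Ska1. The same library held 32 of 33 genes counted in injured MRL but not in injured C57 tendon and 81888 CPM of epidermal markers, and their part in these levels was not tested.

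In uninjured MRL tendon the library labelled replicate 4 was highest for Nuf2 (0.955 CPM) and lowest for Cenpp (6.69 CPM). Replicate 1 was highest for Nsl1 (2.06 CPM) and Incenp (4.84 CPM) and lowest for Cenpa (2.32 CPM). Replicate 2 was highest for Cenpi (2.98 CPM), Ttk (0.946 CPM) and Ska1 (1.67 CPM), and replicate 3 for Knl1 (0.0597 CPM, a single count).

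In injured tendon MRL replicate 4 was highest for Cenpp (26.4 CPM) and Bub3 (222 CPM), MRL replicate 3 lowest for Bub1b (10.4 CPM) and C57 replicate 1 lowest for Zw10 (12.3 CPM). No member had every library moving one way in one strain and the opposite way in the other (0 of 41). This count says little, since with all libraries 1 member, Incenp, had its C57 groups apart, and the share over all genes was not computed.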

How the results depend on the processing

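The number of members called in C57 went from 0 to 1 with DESeq2 and to 10 without the library labelled uninjured replicate 4, which set the range of 0 to 10 when each library was left out. In MRL the count went from 32 to 12 when at least 10 counts were asked of every library, where 18 members were tested, 11 of the 32 among them and all 11 still called, and 5.01% of all genes were called higher. It was 20 in one fit over all 16 libraries, against 3.54%. DESeq2 called 33, all higher, where it called 989 of 14274 genes higher, and 31 of the 32 were among them. Leaving out each library gave 24 to 32. The 24 came without injured replicate 4, with 570 of 14679 genes called higher, and the 32 without injured replicate 3, with 819 of 14693. Of the 32 members, 22 were called in all 8 fits that left out 1 library and 16 in every fit that tested them. DESeq2 called 2 members in the interaction and 4 between injured strains. Leaving out each library gave 0 to 2 between injured strains. It was 1 (Mad2l1) without C57 injured replicate 2, where 286 of 15200 genes were called in either direction. It was 2 (Mad2l1 and Ttk) without MRL injured replicate 3, where 481 of 15100 genes were. The cause of these shifts was not tested, apart from the smaller number of members tested.

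Some log2 fold changes changed sign. Bub3 in C57 was 0.020 with at least 10 counts in every library, and -0.064 to 0.00905 with each library left out, above 0 without injured replicate 1 or 2. Ttk in C57 ranged from -0.65 to 7.03, the latter without the labelled uninjured replicate 4, and was 0.076 without injured replicate 4. Mis12 in MRL ranged from -0.018 (without injured replicate 2) to 0.34. Mad1l1 in MRL ranged from -0.086 (without uninjured replicate 3) to 0.13, and was -0.0039 without the labelled uninjured replicate 4 and -0.049 without injured replicate 1. Between injured strains Hjurp ranged from -0.33 to 0.039 (without C57 injured replicate 3), and Nsl1 from -0.55 to 1.33 (without the same library), also above 0 without MRL injured replicate 1 or 3. Of the fold changes recomputed under alternatives, 373 of 398 values in C57 (28 members), 484 of 562 in MRL (39 members) and 266 of 277 between injured strains (20 members) kept direction and side of the threshold.

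The replicate block over uninjured libraries, whose numbers come from the labels, called 0 members, as without it, and no library correlated best with its own number. At these depths 3 counts are 0.124 to 0.239 CPM, so lower levels in uninjured tendon were not detectable.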
